A study of Homo sapiens with 24 samples.

Results

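Cytosolic ribosomal protein mRNAs encode the proteins of the ribosome that translates in the cytoplasm. They were taken by name from a deposited expression table: every gene symbol made of RPL or RPS and a number, with the usual suffixes, plus RPLP0, RPLP1, RPLP2 and RPSA, when its mean abundance over the 24 libraries was at least 1 TPM. TPM is a relative abundance that corrects for the length of the transcript and adds up to 1000000 in every library. The rule found 82 members among the 13416 genes that passed the same minimum, in a table of 25341 genes. Of these, 50 belong to the large subunit (RPL symbols) and 32 to the small subunit (RPS symbols). There were 84 matching symbols before the minimum. The 2 just outside it were RPL10L at 0.03 TPM and RPL3L at 0.28 TPM, and the 2 lowest inside it were RPL39L at 16.1 TPM and RPS27L at 29.5 TPM.

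The libraries come from U2OS, a human osteosarcoma cell line, carrying a stable Tet-off switch for TOB2 with the S254D substitution. TOB2 is an adaptor that brings the CCR4-NOT deadenylase to mRNA, and the substitution puts an acidic residue in place of a serine to mimic phosphorylation. In the uninduced arm doxycycline was in the medium and kept the transgene off. In the induced arm doxycycline was left out, so removal of the drug and expression of the transgene cannot be told apart. RNA was labelled with bromouridine, chased for 0, 0.5, 1, 2, 4 or 6 h, extracted from the cytoplasm and immunoprecipitated with an antibody to bromouridine, with 2 libraries in each of the 12 groups of arm and time. Whether the 2 replicates were separate cultures is not stated, and p-values measure only the spread between these libraries, which may be technical. The sequencing depth is unknown, because the values are scaled to a fixed total. A rise in TPM is a rise relative to the other labelled RNAs of the library. Loss shared by all RNAs, and labelled RNA still arriving in the cytoplasm during the chase, cannot be told apart from a member's own stability.

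TOB2 itself was measured at 92.3 to 267.4 TPM in the uninduced libraries and at 499.03 to 725 TPM in the induced libraries, with no overlap. Reads from the transgene and from the cells' own gene cannot be separated. Replicates correlated at 0.97 to 0.986 over genes, and 12594 to 13757 genes reached 1 TPM in a library. Among cell type markers, VIM of the mesenchymal and osteoblast list was at 345.7 to 968 TPM. The keratins KRT8 and KRT18 of the epithelial list were at 483.6 to 1627.9 and 1210.02 to 2562.9 TPM. Of the same epithelial list, CDH1 and KRT19 did not exceed 0.57 TPM and CLDN4 did not exceed 2.08 TPM. RUNX2 was at 1.68 to 7.53 TPM, and IBSP and EPCAM were listed at 0 in all libraries. SPARC, ALPL, COL1A2, FN1, SPP1 and SP7 did not exceed 0.6 TPM. COL1A1 was at 5.56 to 22.9 TPM and BGLAP at 0 to 6.46 TPM. Of 11 mesenchymal and osteoblast markers 4 passed the minimum, and the list summed to 360.2 to 985.8 TPM. Of 6 epithelial markers 3 passed it, and that list summed to 1741 to 4191.1 TPM. Leukocyte markers summed to 14.2 to 62.6 TPM, mostly LYZ, and endothelial markers to 2.52 to 5.21 TPM. RMRP, MIR6723 and RPPH1, 3 non-coding RNAs, made up a share of TPM that moved along the chase: 22.1% and 22.6% in the uninduced libraries at 0 h, 21.2% and 27.5% in the induced libraries at 0 h, and 7.14% to 8.45% in the 4 libraries at 6 h.

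Ribosomal protein genes are transcribed at high rates in growing cells, and most of their products are assembled with ribosomal RNA in the nucleolus in equal numbers per subunit. Their mRNAs are the classic example of a class with a terminal oligopyrimidine (TOP) tract: the message begins with a C followed by an unbroken run of pyrimidines. The tract places translation of the whole class under the mTOR kinase, and LARP1 binds capped TOP messages and is known to keep them stable when their translation is low. Ribosomal protein mRNAs are widely known as long-lived messages.

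The start sequences of the members that the results below turn on are given first, because the tract is the feature that defines the class. RefSeq promoters (assembly GRCh38.p14) were matched by symbol for 66 of the 82 members. Each line holds the 15 bases before the annotated start and the 15 bases from it, 5′ to 3′ on the gene's strand, and capitals mark the counted match: a C followed by at least 4 bases that are each C or T, read from the annotated start or, without a match there, from the nearest base within 10. Pyrimidines just before the start, and other stretches that meet the pattern, are in lower case. The first 5 are members that rose along the chase in both arms, and the next 3 are large subunit members that fell (RPL10A, RPL28) or were not called (RPL22L1). The last 2 are members without a match.
RPLP2 (chromosome 11, 809952 to 809981, plus strand): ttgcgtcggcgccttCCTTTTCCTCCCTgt
RPS21 (chromosome 20, 62387088 to 62387117, plus strand): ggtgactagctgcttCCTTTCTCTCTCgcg
RPS6 (chromosome 9, 19380222 to 19380251, minus strand): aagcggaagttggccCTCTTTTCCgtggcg
RPLP0 (chromosome 12, 120201097 to 120201126, minus strand): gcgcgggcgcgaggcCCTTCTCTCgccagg
RPL39 (chromosome X, 119791616 to 119791645, minus strand): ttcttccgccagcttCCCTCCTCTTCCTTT
RPL10A (chromosome 6, 35468386 to 35468415, plus strand): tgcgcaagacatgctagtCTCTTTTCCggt
RPL28 (chromosome 19, 55385917 to 55385946, plus strand): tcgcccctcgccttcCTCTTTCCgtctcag
RPL22L1 (chromosome 3, 170870181 to 170870210, minus strand): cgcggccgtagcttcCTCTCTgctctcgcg
RPL7L1 (chromosome 6, 42879601 to 42879630, plus strand): cggaagtgcggcgccgtagctaggagcgga
RPS27L (chromosome 15, 63157463 to 63157492, minus strand): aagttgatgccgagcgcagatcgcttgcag

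The annotated start itself was a C followed by such a run in 43 of the 66 members (65.2%), against 5.4% of 9434 kept genes with a promoter. Pyrimidines before the start were not counted, so the run can begin earlier. The share was 63.4% in the large subunit (26 of 41) and 68% in the small subunit (17 of 25). When the run could begin up to 10 bases on either side of the start, 56 members (84.8%) and 33.5% of kept genes held it. On the opposite strand of the same window the run was found in 15.2% of members and 31.6% of kept genes. The longest match, 19 bases in RPL39, went past the printed window. In a list of translation factors and other genes of the same mRNA class, 13 of 15 held the run at the start (86.7%). Among ribosome biogenesis factors 10.2% held it there, and among mitochondrial ribosomal protein mRNAs 7.35%. The presence of the run did not separate the members by their behaviour in the chase: the 56 members with a run within 10 bases had median slopes of 0.097 (uninduced) and 0.14 (induced) log2 TPM per hour, and the 10 without one had 0.083 and 0.12. RPL10A and RPL28, which fell, carry the run, RPL10A from 3 bases after the annotated start. A match is a run of letters and not a measured start of transcription.

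The ribosomal protein mRNAs became a larger share of the labelled RNA during the chase in both arms. They held 8.32% and 8.89% of all TPM in the 2 uninduced libraries at 0 h, 9.6% and 10.1% at 0.5 h, 10.4% and 10.7% at 1 h, 10.6% and 10.4% at 2 h, 11.7% in both at 4 h, and 13.8% and 14.5% at 6 h. In the induced arm they held 8.33% and 7.8% at 0 h, 8.77% and 8.02% at 0.5 h, 10.01% and 9.81% at 1 h, 9.88% and 10.3% at 2 h, 12.5% and 11.2% at 4 h, and 15.4% in both at 6 h. Measured against all TPM, the uninduced share was level from 1 to 2 h and rose before and after. At 0.5, 1 and 2 h both induced libraries lay below both uninduced libraries, at 6 h both lay above, and at 0 and 4 h the arms overlapped.

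The size of that rise depends on what it is measured against. Of protein-coding TPM alone, the members held 11.9% ± 0.566 (SD, n = 2) in the uninduced arm at 0 h and 16.2% at 6 h (15.7% and 16.7% in the 2 libraries). In the induced arm the means were 11.5% and 17.5% (17.6% and 17.5% in the libraries at 6 h). On this scale the uninduced means at 1, 2 and 4 h were 13.86%, 13.25% and 13.85%, and the induced means 13.23%, 12.89% and 14.11%, so most of the rise after 1 h came between 4 and 6 h. Part of the rise in the share of all TPM therefore coincided with the fall of RMRP, MIR6723 and RPPH1, whose own share is given above. Non-coding transcripts of member genes contributed at most 0.703% of the members' TPM in any library.

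**Figure D1:**
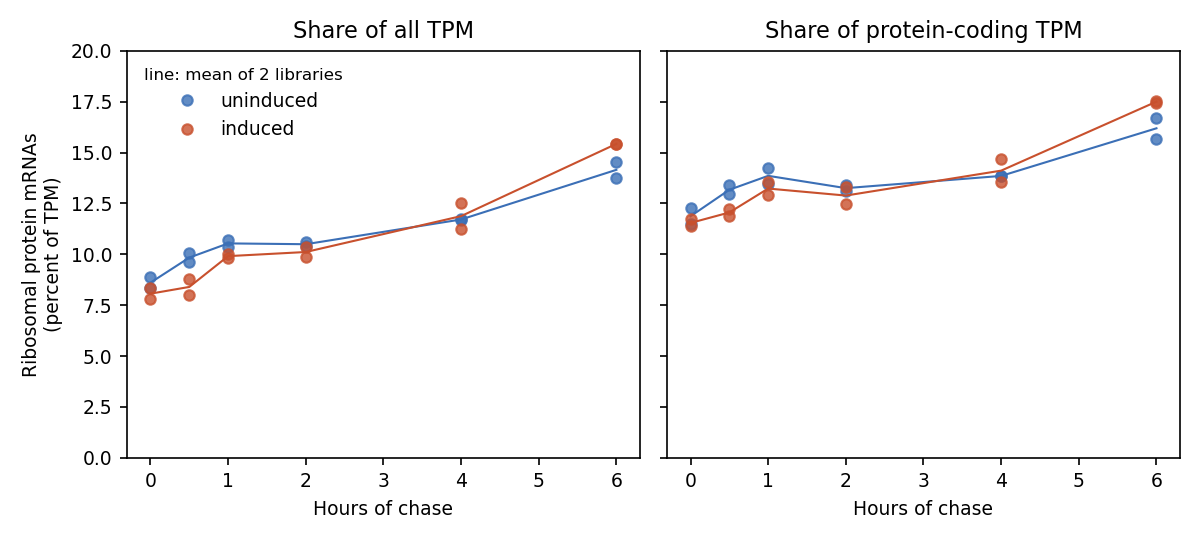
Summed TPM of the 82 ribosomal protein mRNAs by hours of chase, as percent of all TPM (left) and of protein-coding TPM (right). Points are libraries (blue uninduced, orange induced) and lines join the means of 2 libraries. The induced libraries lie below the uninduced ones at 0.5 h and above them at 6 h in both panels, at 15.4% of all TPM against 13.8% and 14.5% at 6 h.

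Nearly all members rose along the chase in the uninduced arm. A straight line on hours was fitted to log2(TPM + 1) for each gene and arm with limma, and a slope was called when its Benjamini-Hochberg adjusted p over the 13416 genes was under 0.05. In the uninduced arm 75 of 82 members were called higher and 2 lower, where 42.8% of all genes were called higher and 22.3% lower. The median slope was 0.097 log2 TPM per hour over members and 0.039 over all genes. TPM at 6 h was above TPM at 0 h in 79 members, with a median fold of 1.62 and a range from 0.515 for RPL10A to 2.65 for RPL5. In 77 members both libraries at 6 h were above both at 0 h. Shares of all genes are not given for these fold and library counts, so they describe the members only. The 5 members not called were RPL3, RPL7L1, RPL22L1, RPS16 and RPS27L.

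Nearly all members also rose in the induced arm. There 77 of 82 members were called higher and 3 lower, against 41.6% and 29% of all genes. The median slope was 0.14 log2 TPM per hour over members and 0.028 over all genes. The median fold between 0 and 6 h was 1.89, from 0.576 for RPL10A to 3 for RPL5. The fold was at least 2 in 32 members, compared with 8 in the uninduced arm, with no share of all genes given for either count. Across the 82 members the slopes of the arms correlated at 0.921, a description over genes measured in the same libraries.

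The number of calls in the uninduced arm followed the scaling of the libraries, and the direction of most members did not. The members called higher numbered 66 after quantile normalization, 36 after median-of-ratios scaling, 51 on protein-coding transcripts alone and 57 without RMRP, MIR6723 and RPPH1. In the induced arm they numbered 71, 71, 68 and 71. These scalings moved the median slope of all genes by up to -0.044 log2 TPM per hour (uninduced) and -0.046 (induced), and the share of calls on the higher side among all genes from 65.8% to between 48.4% and 60.2% (uninduced) and from 58.9% to between 44.7% and 59.3% (induced). Between 71 and 76 members stayed above the all-gene median in the uninduced arm, and between 76 and 78 in the induced arm. Slopes changed sign under at least 1 scaling for RPL13, RPL27A, RPL3, RPL7L1, RPS27L and RPS28 in the uninduced arm and for RPL13 and RPL13A in the induced arm.

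Most mRNAs of both subunits rose, and the members called lower all belonged to the large subunit. In the uninduced arm 45 of 50 large subunit members were called higher and 2 lower, with a median slope of 0.09. All 32 small subunit slopes were positive, 30 were called higher and none lower, and the median was 0.107. In the induced arm the calls were 46 higher and 3 lower of 50 (median 0.13) and 31 higher and none lower of 32 (median 0.15). The lowest small subunit slopes were 0.043 (RPS27L, uninduced) and 0.085 (RPS27, induced), whereas large subunit slopes reached down to -0.18 and -0.16. The median folds between 0 and 6 h were 1.58 (large) and 1.66 (small) in the uninduced arm and 1.84 and 1.97 in the induced arm.

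The summed TPM of the large subunit was 1.67 to 1.8 times that of the small subunit in every library. The ratio was 1.76 and 1.77 in the uninduced libraries at 0 h and 1.73 and 1.68 at 6 h. It was 1.8 in both induced libraries at 0 h and 1.67 and 1.71 at 6 h. In both arms the 2 libraries at 6 h were below the 2 at 0 h. By the most abundant transcript of each gene the uninduced libraries overlapped, at 1.698 and 1.681 at 0 h and 1.691 and 1.594 at 6 h. With 2 libraries in each group the order carries no test. RPL41 encodes a very short basic peptide of the large subunit and had the highest mean of all members (6095.9 TPM). Without it, an alternative looked at after its level was seen, the ratio was 1.52 to 1.64.

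**Figure D2:**
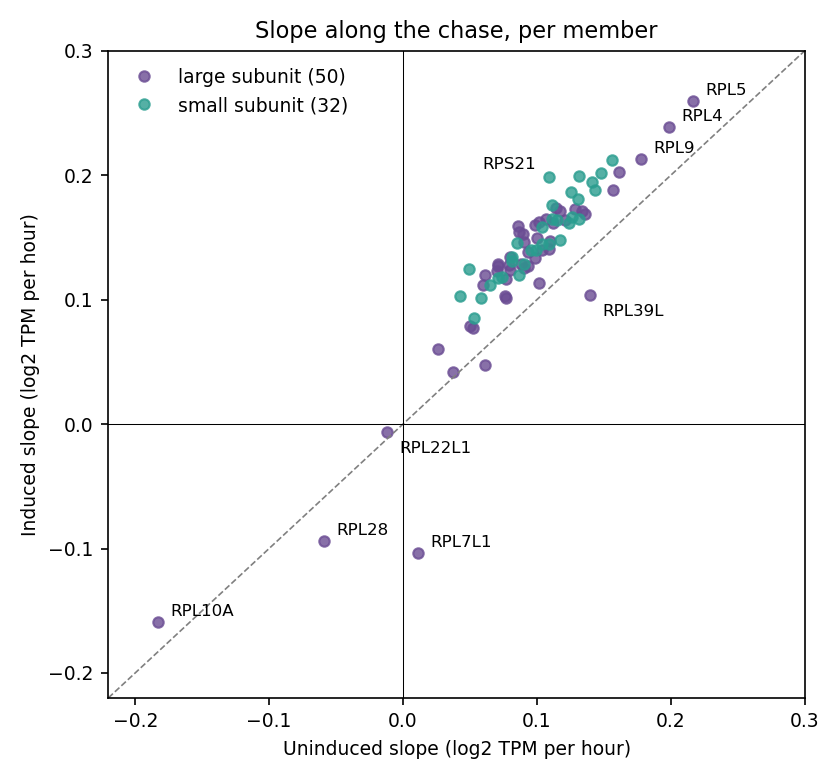
Slope along the chase of each of the 82 members in the uninduced arm (x axis) and the induced arm (y axis), in log2 TPM per hour. Purple points are large subunit and green points small subunit members, and the dashed line marks equal slopes. Most members lie above the dashed line, and RPL10A, RPL28, RPL7L1 and RPL22L1, all of the large subunit, lie near or under 0.

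The most abundant members rose in both arms. In the large subunit the 4 highest were RPL41, RPL19, RPL4 and RPL8, with mean levels from 2574.5 to 6095.9 TPM. High levels in the small subunit included those of RPS18, RPS6 and RPS27, with 2057.7 to 2703.5 TPM. RPL4, which anchors part of the peptide exit tunnel, went from 1476.8 and 1650 TPM at 0 h to 3746.4 and 3997.2 TPM at 6 h in the uninduced libraries. RPS6, the small subunit protein phosphorylated by S6 kinases downstream of mTOR, went from 1561.4 and 1725.2 to 2698.9 and 3107 TPM there. In the induced libraries RPS6 went from 1623.8 and 1472.1 to 3200 and 3156.6 TPM, so that its 4 libraries at 6 h all lay above its 4 at 0 h. Its slopes were 0.12 ± 0.017 (SE) and 0.16 ± 0.017 log2 TPM per hour (limma adjusted p = 2.08e-06 and 6.37e-09).

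RPL5 and RPL11 form the 5S particle with 5S ribosomal RNA, which also binds the p53 ubiquitin ligase MDM2 when ribosome assembly is disturbed. RPL5 had the largest slope of all members in both arms. Its TPM in the uninduced libraries was 1028.7 and 1123.9 at 0 h, 1335.7 and 1307.9 at 0.5 h, 1533.6 and 1467.1 at 1 h, 1737.1 and 1831.4 at 2 h, 2297.5 and 2195.5 at 4 h, and 2851.2 and 2846.7 at 6 h. In the induced libraries it was 1182.9 and 997.1 at 0 h, 1298.8 and 1108.5 at 0.5 h, 1554.8 and 1400.2 at 1 h, 1789.2 and 1794.1 at 2 h, 2522.3 and 2294.3 at 4 h, and 3203.8 and 3329.7 at 6 h. Each uninduced pair lay above the pair before it. The arms overlapped at 0, 1, 2 and 4 h, and both induced libraries were lower at 0.5 h and higher at 6 h. The slopes were 0.22 ± 0.017 (SE) and 0.26 ± 0.017 log2 TPM per hour (limma adjusted p = 1.41e-10 and 3.4e-12).

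RPL11 was already higher at 1 h in both arms. Its uninduced libraries read 715.6 and 770.3 TPM at 0 h, 999.1 and 1006.2 at 0.5 h, and 1146.6 and 1148.5 at 1 h, then 1022.2 and 1126 at 2 h, 1195.5 and 1274.1 at 4 h, and 1349 and 1466.8 at 6 h. Its induced libraries read 731.7 and 679.2 TPM at 0 h, 843.4 and 854.8 at 0.5 h, 1063 and 1052.7 at 1 h, 1106.1 and 1269 at 2 h, 1316.2 and 1248.2 at 4 h, and 1596.8 and 1669.3 at 6 h. The mean was higher at each successive time in the induced arm, while in the uninduced arm it was lower at 2 h than at 1 h. The change from 0 to 1 h was 0.63 ± 0.082 (SE) on the log2 scale (limma adjusted p = 0.00081), and in the induced arm 0.58 ± 0.082 (adjusted p = 0.0026). RPL11 had the smallest p of any member for the early change in both arms.

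Early and late changes differed in how many members they reached. Between 0 and 1 h the median change was 0.26 on the log2 scale in the uninduced arm (0.089 over all genes) and 0.28 in the induced arm (0.12). At this stage 19 members were called higher in the uninduced arm and 18 in the induced arm, and none lower, where 2.93% and 2.92% of all genes were called higher. After median-of-ratios scaling 2 and 0 members were called. RPL22, RPL26L1, RPL5, RPL4, RPL9, RPS10 and RPS15A, picked by their p-values, were among those called beside RPL11 in both arms. These counts depended on single libraries: leaving out 1 of the uninduced libraries at 0 h or 1 h left 1 to 5 calls, and 0 were left without replicate 2 of the induced arm at 0 h.

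Between 1 and 6 h the median change was 0.4 in the uninduced arm and 0.61 in the induced arm, against 0.16 and 0.076 over all genes. Here 65 members were called higher and 1 lower in the uninduced arm, with 33.3% and 19.3% of all genes called in those directions. In the induced arm 74 were called higher and 3 lower, with 32.9% and 27.3% of all genes. The largest late change of a member in the induced arm was RPL5 at 1.15 ± 0.094 (SE). Without replicate 2 of the uninduced arm at 6 h the higher calls in that arm fell to 40, and median-of-ratios scaling left 20.

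The stalk of the large subunit is built from RPLP0 and copies of RPLP1 and RPLP2 on a base that includes RPL12, and it recruits the translation GTPases. All 4 members were called higher in both arms, as were 42.8% (uninduced) and 41.6% (induced) of all genes. In the uninduced arm the calls of RPLP0, RPLP1 and RPL12 were lost after median-of-ratios scaling (limma adjusted p = 0.641, 0.204 and 0.995), on protein-coding transcripts (0.392, 0.213 and 0.859) and with the 3 non-coding RNAs left out (0.182, 0.153 and 0.617). That of RPLP1 was also lost after quantile normalization (0.0549). The induced call of RPL12 was lost under the first 3 of these (0.128, 0.331 and 0.13). Their median slope was 0.073 log2 TPM per hour in the uninduced arm, between the medians of all genes and of all members, and 0.13 in the induced arm. RPLP2 read 658.7 and 673.6 TPM at 0 h and 1021.9 and 994.8 TPM at 6 h in the uninduced libraries. In the induced libraries RPLP2 read 641.1 and 575.9 TPM at 0 h and 1250.4 and 1242.1 TPM at 6 h. Both induced libraries were below both uninduced ones at 0, 0.5 and 2 h and above them at 6 h, and the arms overlapped at 1 and 4 h. RPLP1 had a replicate difference throughout: replicate 1 was above replicate 2 in all 12 groups, by 1.36-fold on average, as at 0 h in the uninduced arm with 1662.2 and 1194.1 TPM.

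Proteins around the exit of the peptide tunnel, where chaperones and the signal recognition particle dock, all rose with the values as deposited: 10 of 10 were called higher in both arms, where 42.8% and 41.6% of all genes were. Of 14 proteins of the small subunit head, which faces the decoding site and the incoming mRNA, 13 were called higher in both arms and none lower, against the same shares of all genes. These uninduced calls are part of the 75 that fell to 36 after median-of-ratios scaling. The member of that list that was not called is RPS16, and it is described with the replicates below.

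RPL10A, a protein of the flexible L1 stalk near the tRNA exit site, fell in both arms. Its uninduced libraries read 939.8 and 893.2 TPM at 0 h, 867.9 and 896 at 0.5 h, 869.6 and 803.3 at 1 h, 550.5 and 535.1 at 2 h, 433 and 466.1 at 4 h, and 461.6 and 483.1 at 6 h. Its induced libraries read 944.5 and 786.4 at 0 h, 835.9 and 714.3 at 0.5 h, 780.8 and 781.2 at 1 h, 567 and 544.5 at 2 h, 424.1 and 380.9 at 4 h, and 508.5 and 488 at 6 h. The fall took place between 1 and 4 h in both arms, with no overlap between the libraries up to 1 h and those from 2 h on. The slopes were -0.18 ± 0.03 (SE) and -0.16 ± 0.03 log2 TPM per hour (limma adjusted p = 1.12e-05 and 5.36e-05), and both stayed negative and called under the 4 other scalings. The slopes of the arms differed by 0.024 ± 0.043 (limma adjusted p = 0.865).

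RPL28 was the other member called lower in both arms. It read 450.8 and 377.3 TPM at 0 h and 340.7 and 311.5 TPM at 6 h in the uninduced libraries, and 407.7 and 342.4 at 0 h and 279.5 and 243.6 at 6 h in the induced libraries. The 2 libraries at 6 h lay below the 2 at 0 h in each arm. The slopes were -0.059 ± 0.019 (SE) and -0.094 ± 0.019 log2 TPM per hour (limma adjusted p = 0.00946 and 0.000132). The uninduced call was lost in the fit without the replicate 1 series, where the slope was -0.042.

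RPL7L1, a paralog of RPL7 that acts in ribosome assembly, was the member that departed most between the arms. In the uninduced libraries it read 298.3 and 322.3 TPM at 0 h, 305.5 and 343.8 at 0.5 h, 333.8 and 360.5 at 1 h, 374.8 and 370.2 at 2 h, 369.1 and 360.9 at 4 h, and 316 and 336.8 at 6 h. In the induced libraries it read 307.2 and 299.3 at 0 h, 341.7 and 299.9 at 0.5 h, 341.1 and 313 at 1 h, 336.5 and 362.3 at 2 h, 276.9 and 269.8 at 4 h, and 193.2 and 209.7 at 6 h. The arms overlapped at 0, 0.5 and 1 h, and from 2 h on both induced libraries lay below both uninduced ones. The difference between the arms was -0.42 ± 0.089 (SE) on the log2 scale at 4 h (limma adjusted p = 0.0123) and -0.69 ± 0.089 at 6 h (adjusted p = 0.00012). At these times 3.9% and 8.04% of all genes were called lower. RPL7L1 was the only member called lower at either time with the values as deposited and no replicate term. With the replicate number as a block RPL28 was also called lower at 6 h (limma adjusted p = 0.029). Under other scalings RPL12 was called lower at 4 h (after quantile normalization, adjusted p = 0.0308), and RPL13A at 6 h (after quantile normalization, on protein-coding transcripts, and without RMRP, MIR6723 and RPPH1, with adjusted p = 0.0477, 0.0416 and 0.011). The call at 6 h held under all 4 other scalings, with differences from -0.72 to -0.68, while the call at 4 h was lost after median-of-ratios scaling (adjusted p = 0.0654) and without any 1 of the 4 libraries at 4 h. Its slope was 0.011 ± 0.02 in the uninduced arm (adjusted p = 0.629, with a sign that was negative under the 4 other scalings) and -0.1 ± 0.02 in the induced arm (adjusted p = 5.79e-05).

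**Figure D3:**
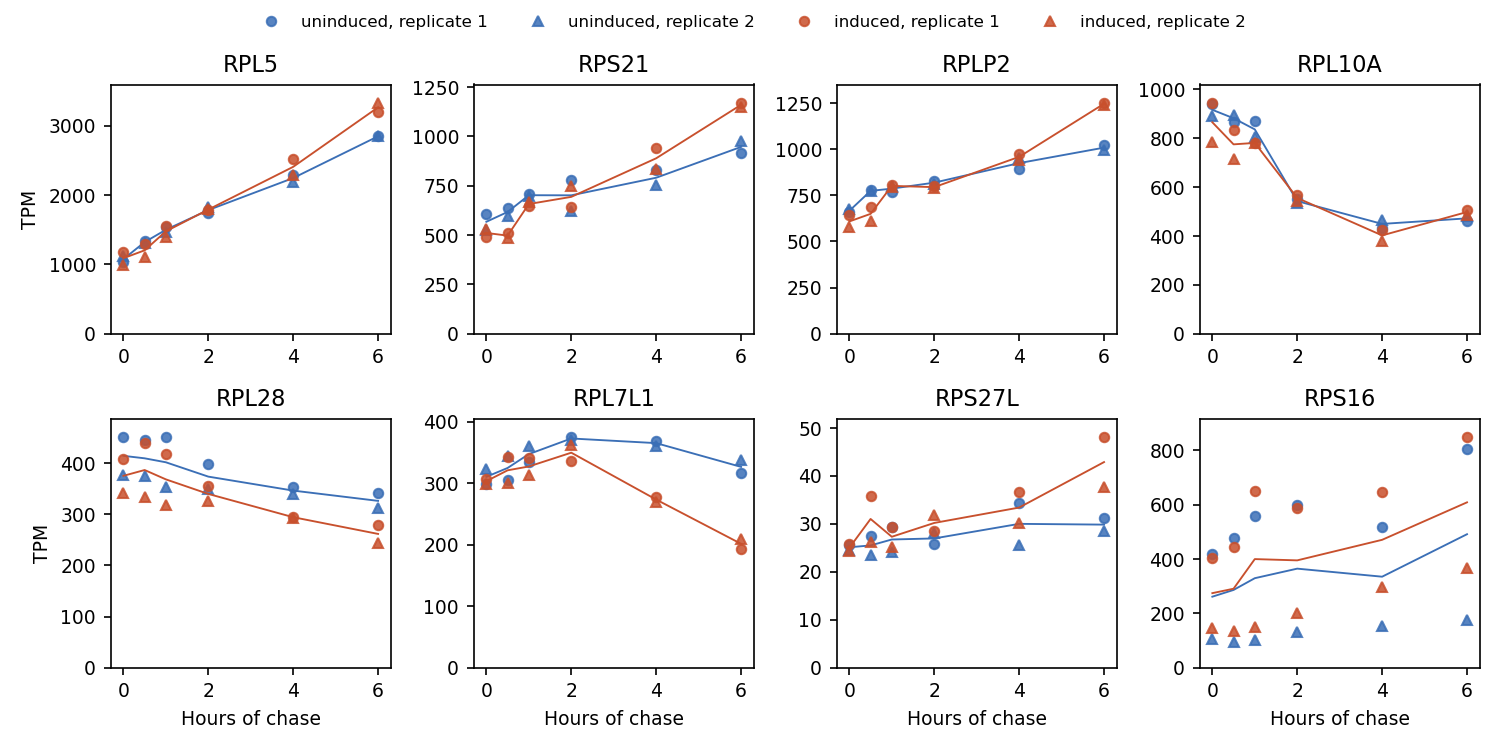
TPM of 8 members by hours of chase, with circles for replicate 1 and triangles for replicate 2, blue for uninduced and orange for induced libraries, and lines through the means of 2 libraries. RPL5, RPS21 and RPLP2 rise, RPL10A falls in both arms between 1 and 4 h, and RPL7L1 falls to 193.2 and 209.7 TPM at 6 h in the induced arm. In RPS16 the 2 replicates form separate series.

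The other paralogs, products of gene copies that are found in place of or beside the usual protein, had lower levels and mixed slopes. Of the 5 above the minimum, 2 were called higher in the uninduced arm, and 3 higher and 1 lower in the induced arm. Of all genes, 42.8% and 22.3% were called higher and lower in the uninduced arm and 41.6% and 29% in the induced arm, and nothing is read from so few paralogs against these shares. The uninduced call of RPL26L1 was lost after quantile normalization, after median-of-ratios scaling and on protein-coding transcripts (limma adjusted p = 0.424, 0.0693 and 0.0523). On protein-coding transcripts the induced calls of RPL26L1, RPL39L and RPS27L were lost (0.0533, 0.184 and 0.0562). RPL26L1 rose from 79.1 and 81.4 to 151.03 and 146.2 TPM in the uninduced arm and from 76.9 and 80.9 to 130.5 and 142.2 TPM in the induced arm. RPL39L rose from 14.4 and 17.9 to 24.2 and 22.1 TPM in the uninduced arm and from 15.3 and 13.6 to 20.1 and 17 TPM in the induced arm. RPL22L1 ended where it began in the uninduced arm, at 217.3 and 256.6 TPM at 0 h and 219.6 and 253.9 TPM at 6 h, and its slopes of -0.012 ± 0.032 and -0.0063 ± 0.032 (SE) were not called. After quantile normalization its induced slope was called lower (-0.082, limma adjusted p = 0.0481). RPS27L, a target gene of p53, was called only in the induced arm, where it went from 25.8 and 24.3 to 48.1 and 37.7 TPM. In the uninduced arm it went from 25.7 and 24.6 to 31.2 and 28.5 TPM. The slope difference for RPS27L was 0.061 ± 0.031 (SE) log2 TPM per hour and was not called (limma adjusted p = 0.433).

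No member was called for a difference in slope between the arms with the values as deposited, and most differences had the same sign. At most 0.335% of all genes were called lower and 0.00745% higher in this comparison. The induced slope was larger in 78 of 82 members, and the same number lay above the all-gene median. The median difference was 0.044 log2 TPM per hour over members (0.04 in the large and 0.048 in the small subunit) and -0.0094 over all genes. An unadjusted p under 0.05 was reached by 32 members and by 1673 of the 13416 genes, and the smallest adjusted p was 0.0603, for RPL7L1, in the opposite direction. The largest positive difference was 0.089 ± 0.024 (SE) for RPS21, a small protein of the small subunit (limma adjusted p = 0.099). RPS21 read 607.4 and 528 TPM at 0 h and 916.3 and 978.2 TPM at 6 h in the uninduced libraries, and 491.9 and 530.1 at 0 h and 1170 and 1151.2 at 6 h in the induced libraries. RPS28 (0.075), RPLP2 (0.073), RPS16 (0.068) and RPL8 (0.068) followed, and RPL7L1 (-0.12), RPL39L (-0.036), RPL28 (-0.035), RPL13A (-0.014) and RPL13 (0.005) had the lowest values.

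The shift of the slopes towards the induced arm was much smaller after quantile normalization, which forces all libraries to the same distribution. The median difference was then 0.012 log2 TPM per hour over members and 0.0041 over all genes, 60 members were positive and 53 lay above the all-gene median. Under the 3 other scalings 78 members lay above the all-gene median, with member medians from 0.03 to 0.056. Single members passed the threshold under some of them: RPL7L1 was called lower after quantile normalization (-0.12, limma adjusted p = 0.00439), on protein-coding transcripts (adjusted p = 0.00613) and without RMRP, MIR6723 and RPPH1 (adjusted p = 0.00962). RPLP2 was called higher under the last 2 of these (0.059 and 0.063, adjusted p = 0.0497 and 0.0367). The sign of the slope difference changed under at least 1 scaling in 19 members, RPL4, RPL5, RPL7, RPS18 and RPS6 among them.

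The arms were also compared at each time. At 0 h the median difference, induced minus uninduced, was -0.092 on the log2 scale over members and 0.049 over all genes, and no member was called, with 0.0298% of all genes called in either direction. At 0.5 h the median over members was -0.21 and that over all genes 0.039. In 64 of 82 members both induced libraries were below both uninduced libraries at 0.5 h, as in 17.1% of all genes, and in no member were both above. The 3 members called lower at 0.5 h, when 0.283% of all genes were, belong to the large subunit. RPL19 read 2502.2 and 2660.04 TPM in the uninduced libraries and 2046.8 and 2001.4 TPM in the induced libraries, a difference of -0.35 ± 0.07 (SE; limma adjusted p = 0.045). RPL29, whose arms did not overlap either, read 1961.6 and 2017.6 TPM and 1643.3 and 1457 TPM, a difference of -0.36 ± 0.075 (adjusted p = 0.0473). Leaving out any 1 of the 24 libraries left at most 1 of these calls.

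The 3 non-coding RNAs differed between the arms in 1 library at this time. At 0.5 h RMRP, MIR6723 and RPPH1 took 19.7% and 19.3% of TPM in the uninduced libraries, and 19.5% and 27.5% in the induced libraries. The members held 8.77% of TPM in replicate 1 of the induced arm and 8.02% in replicate 2. In the uninduced libraries they held 9.6% and 10.1%. On protein-coding transcripts alone the median difference of members at 0.5 h was -0.11, with 70 of 82 negative and 1 called lower, and the members' share of protein-coding TPM was 12.9% and 13.4% in the uninduced and 11.9% and 12.2% in the induced libraries. After quantile normalization the median was -0.05 and 51 members were negative. With RMRP, MIR6723 and RPPH1 left out, 73 members were negative and 1 was called lower. After median-of-ratios scaling 80 were negative and 0 were called lower, against 79 and 3 with the values as deposited. The part of these RNAs in the difference was not tested.

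At 1 and 2 h no member was called, when 0.0373% and 0.253% of all genes were called in either direction. The median differences were then -0.087 and -0.052 over members and 0.0675 and 0.0872 over all genes. Above the all-gene median lay 2 and 7 of 82 members at these times. At 4 h the median was 0.0088 over members and 0.0178 over all genes, and RPL7L1 alone was called with the values as deposited. At 6 h the median over members was 0.115 and over all genes 0.024. In 42 of 82 members both induced libraries then lay above both uninduced ones, as in 31.3% of all genes. They lay below in 6 members, as in 28.4% of all genes, and in 34 the arms overlapped. The 1 member called higher at 6 h, when 1.1% of all genes were, was RPLP2 at 0.31 ± 0.074 (SE; limma adjusted p = 0.0136), and this call was lost when any 1 of the 4 libraries at 6 h was left out. With the replicate number as a block, RPLP1 was among the members also called higher at 6 h (limma adjusted p = 0.0219). The members thus went from below the all-gene median at 0.5 h to above it at 6 h, with 2 and 68 of 82 above that median at these times.

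**Figure D4:**
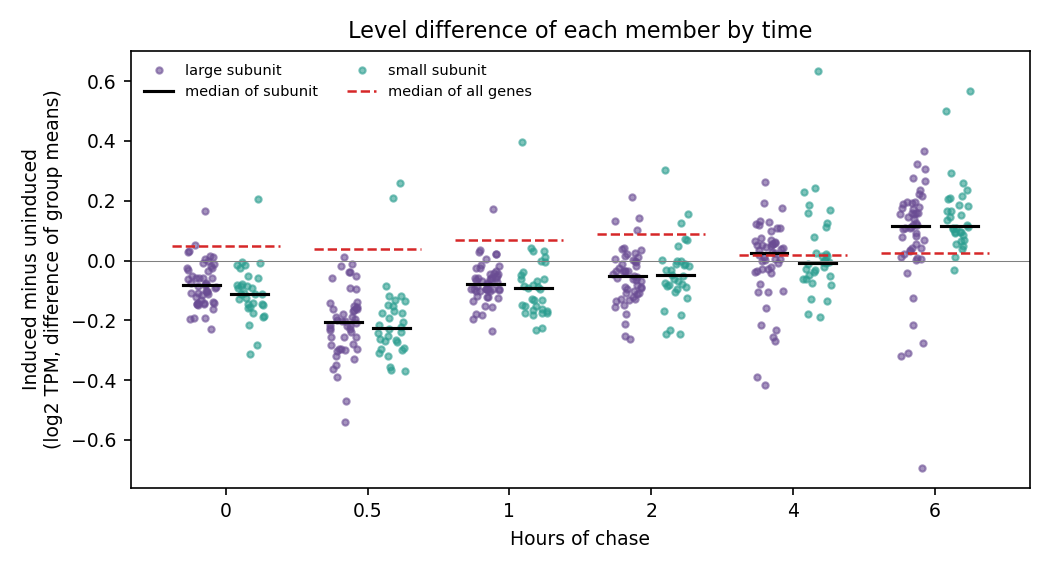
Difference between the arms, induced minus uninduced, for each member at each time, in log2 TPM, with large subunit members in purple and small subunit members in green. Black bars are subunit medians and red dashed lines the median of all genes. The subunit medians are near -0.21 and -0.23 at 0.5 h and near 0.11 and 0.12 at 6 h, and RPL7L1 is the lowest point at 6 h.

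Averaged over the 6 times, 11 members were called lower in the induced arm and none higher, against 11.4% and 14.3% of all genes, so the share of members called lower was near that of all genes. Among the largest differences were those of RPL13 (-0.24), RPL7L1 (-0.22), RPL13A (-0.21), RPS9 (-0.2) and RPL12 (-0.18), with limma adjusted p from 0.000352 to 0.0119. RPL13A encodes a protein that also takes part in silencing of inflammatory mRNAs once it leaves the ribosome. It read 1502.2 and 1473.7 TPM at 6 h in the uninduced libraries and 1250.6 and 1207.3 in the induced libraries, where most other members stood higher. RPL13 read 349.03 and 358.5 TPM in the uninduced libraries and 316.5 and 293.1 in the induced libraries at 6 h.

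Replicates differed strongly in 1 member, which was looked at after its values were seen. RPS16 read 418.3 to 806.7 TPM in replicate 1 and 94.8 to 176.7 TPM in replicate 2 of the uninduced arm, and 404.2 to 849.3 and 136.2 to 368.7 TPM in the induced arm. Replicate 1 was higher in 12 of 12 groups, by 3.57-fold on average. Both series rose: the slopes by replicate were 0.12 and 0.15 in the uninduced arm and 0.15 and 0.25 in the induced arm. Its slopes were therefore not called in the fit without a replicate term (limma adjusted p = 0.378 and 0.167). Replicate 1 or replicate 2 was higher throughout in 6 of 82 members and in 4.27% of all genes, and RPS16 was the only member with a replicate difference above 1 on the log2 scale.

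Within some genes, transcripts moved in opposite directions. Most members, 49, have 1 transcript in the table, and 33 have several with a mean of at least 5 TPM. Of those, 16 had uninduced slopes of both signs. This count goes by sign alone and includes slopes near 0, such as -0.014 for NM_001098577 of RPL31. RSEM divides reads among transcripts that share sequence, so values of single transcripts are less certain than sums over a gene. RPL15 had the widest split. Its transcript NM_001253380 read 301.5 and 226.5 TPM at 0 h and 10.8 and 17.7 TPM at 6 h in the uninduced libraries, and 179 and 216.4 at 0 h and 5.67 and 3.64 at 6 h in the induced libraries. NM_001253383 of the same gene read 347.7 and 416.6 TPM at 0 h and 843.5 and 968.7 TPM at 6 h in the uninduced libraries. NM_001253380 thus lost nearly all of its share while the gene as a whole rose.

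RPL36A repeated this on a smaller scale. NM_001199972 went from 50.9 and 34.7 to 3.43 and 4.15 TPM in the uninduced libraries, while NM_021029 went from 163.5 and 195.3 to 290.6 and 374.6 TPM. By a limit chosen after the values were seen, a slope below -0.1 log2 TPM per hour in both arms, members with rising totals that held such a transcript included RPL15, RPL36A, RPS29, RPS3 and RPS3A. In RPLP0 the transcripts NM_001002 and NM_053275 were level at 0 h in the uninduced arm, at means of 563.6 and 555.1 TPM. At 6 h NM_001002 read 1330.3 and 979.9 TPM there. NM_053275 read 543.8 and 566.4 TPM at 0 h and 239.4 and 524.4 TPM at 6 h, so most of its fall was in replicate 1. RPL28 was the reverse case, a falling gene with a rising transcript. NM_001136137, with 50% of the gene's TPM, had slopes of -0.095 and -0.17, and NM_000991, with 13% of it, had slopes of 0.091 and 0.16. No test was made on transcripts.

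**Figure D5:**
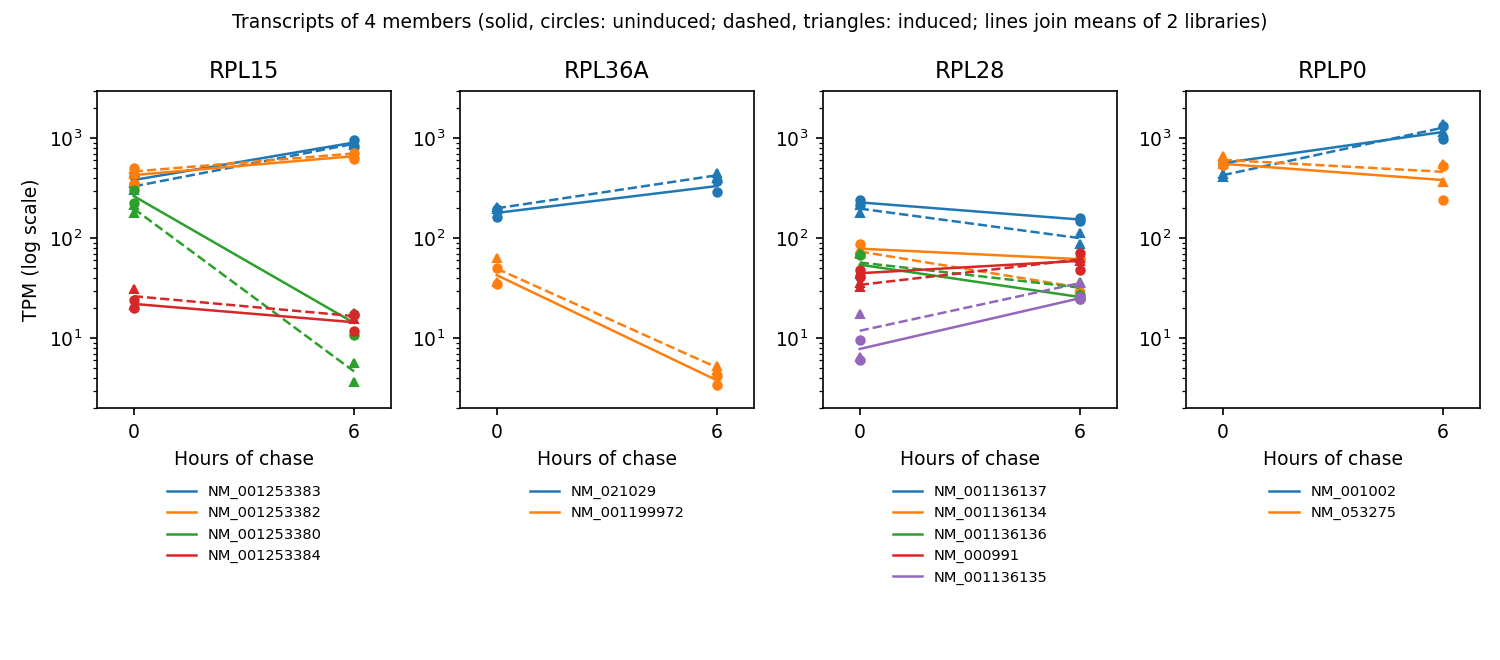
TPM at 0 and 6 h of the RefSeq transcripts of RPL15, RPL36A, RPL28 and RPLP0 with a mean of at least 5 TPM, on a log axis. Circles and solid lines are uninduced libraries and means, triangles and dashed lines induced ones, with 1 colour for each transcript. NM_001253380 of RPL15 drops to between 3.64 and 17.7 TPM in the 4 libraries at 6 h, while 2 other transcripts of the gene rise.

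Of 4 measured ribosomal protein genes outside the naming rule, 4 were called higher in the uninduced arm and 3 in the induced arm. Of all genes 42.8% and 41.6% were called higher, and nothing is read from so few genes against these shares. FAU, which encodes a ribosomal protein fused to a relative of ubiquitin, and GNB2L1 (RACK1), a scaffold on the small subunit, were called higher in both arms. GNB2L1 went from 813.3 ± 23.7 to 1660.5 ± 47.1 TPM (SD, n = 2) in the uninduced arm and from 805.3 ± 73.3 to 1856.6 ± 47.3 TPM in the induced arm. RPL36AL, a close copy of RPL36A, was called in the uninduced arm only, where it went from 534.2 ± 18.9 to 665.8 ± 19.4 TPM, and read 557.4 ± 5.08 and 553.5 ± 73.1 TPM in the induced arm. Its slope difference of -0.039 ± 0.02 (SE) was not called (limma adjusted p = 0.446).

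Of 24 genes listed as translation factors or other messages of the TOP class, 22 were called higher in both arms and none lower. The others include NPM1, NAP1L1, HNRNPA1, TPT1 and GNB2L1. The median slopes of the list were 0.19 and 0.21 log2 TPM per hour. A start sequence was at hand for 15 genes of the list, and 13 of these held the run at the start. The shares of all genes called were 42.8% higher and 22.3% lower in the uninduced arm and 41.6% and 29% in the induced arm. EIF4A2 and HNRNPA1 were the 2 not called. The median slope difference of the list was 0.035. EIF3K (0.09 ± 0.029, SE), EIF3G (0.069 ± 0.038) and EEF1B2 (0.053 ± 0.03), subunits of initiation factor eIF3 and of the elongation factor complex eEF1B, had the smallest p for it besides GNB2L1, which the list also holds, and none was called (limma adjusted p from 0.17 to 0.503). Of 77 mitochondrial ribosomal protein mRNAs, whose products form the separate ribosome of the mitochondria, 49 were called higher and 4 lower in the uninduced arm (42.8% and 22.3% of all genes) and 48 and 6 in the induced arm (41.6% and 29%). Their median slopes were 0.075 and 0.08, and their median slope difference was 0.0021. Those called lower in the uninduced arm were MRPL17, MRPL49, MRPS12 and MRPS18A, with slopes from -0.18 to -0.035. MRPL34 (-0.084 ± 0.026, SE), MRPL17, MRPL36 and MRPS31 had the smallest p for the slope difference, and none was called (limma adjusted p from 0.159 to 0.362).

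Ribosome biogenesis factors held members that moved both ways. Of 58, 43 were called higher and 4 lower in the uninduced arm (42.8% and 22.3% of all genes), and 39 and 4 in the induced arm (41.6% and 29%). RRS1, which helps load the 5S particle, fell with slopes of -0.41 and -0.59, and UTP3, a factor of early small subunit assembly, with -0.17 and -0.34. NMD3, an export adaptor of the large subunit (-0.089 and -0.17), and AAR2, better known from assembly of the U5 splicing particle (-0.11 and -0.18), fell less. NOC2L rose with 0.22 and 0.31. NIP7 had slopes of 0.062 and -0.054, the second of which was not called. Their slope differences were not called (limma adjusted p from 0.15 to 0.223).

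Of 14 regulators of TOP mRNAs, 12 were called higher and 1 lower in each arm (of all genes, 42.8% and 22.3% uninduced and 41.6% and 29% induced), the latter being RPS6KB2 (-0.073) in the uninduced arm and EIF4EBP2 (-0.056) in the induced arm. The 4 with the smallest p for the slope difference were EIF4EBP2 (-0.073 ± 0.023, SE), RPS6KB2 (0.082 ± 0.032), LARP4B (-0.068 ± 0.028) and TIA1 (-0.044 ± 0.03), none of them called (limma adjusted p from 0.167 to 0.585). EIF4EBP2 is an inhibitor of cap-dependent initiation and RPS6KB2 a kinase of RPS6. Among 17 chaperones of ribosomal proteins and ribosome rescue factors, 13 were called higher and 1 lower in the uninduced arm (42.8% and 22.3% of all genes), and 12 and 2 in the induced arm (41.6% and 29%). The genes called lower were PELO, a ribosome rescue factor (-0.49 and -0.56 in the arms), and in the induced arm PDCD2L (-0.13), which were named after their values were seen. LYAR (-0.1 ± 0.041) and BTF3 (0.048 ± 0.021) had the smallest p for the slope difference there, and neither was called (limma adjusted p = 0.278 and 0.342).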

How the data were processed

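The deposited values are TPM for each RefSeq transcript with 2 decimals, and each library adds up to 1000000 TPM; per the submitters' processing notes the authors used the hg19 build, RSEM 1.3.0, Bowtie2 and Trim Galore, in roles that are not given. Depth is therefore unknown, and no counting error can be given. TPM was summed per gene symbol over 48009 transcripts, 3 of which have no symbol, and 13416 of 25341 genes reached the minimum mean of 1 TPM. The limma package (3.58.1, in R 4.3.3, with the data.table package at 1.17.8) was applied to log2(TPM + 1), so fold changes are on that scale and understate changes of low genes. Variances followed the mean level. Two-sided p-values received the Benjamini-Hochberg adjustment over all 13416 genes, with a threshold of 0.05. One fit had a straight line per arm (20 residual degrees of freedom), and another had a mean for each of the 12 groups (12). Summaries used Python 3.11.15 with pandas 2.3.3 and numpy 2.4.6, and plots matplotlib 3.10.9. The fits were tested on simulated data. Shares, subunits, transcripts and start sequences were described without a test.

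Replicate numbers were not taken as pairs: deviations from group means correlated at -0.036 to 0.25 over 66 pairs of groups, with 29 over 0.1 and the rest not, and the labels name nothing that a number shares. The replicate order was nevertheless the same in all 12 groups in 4.27% of kept genes. In such genes the main fits count the replicate difference as spread. Members, gene lists and tests were chosen with earlier results of these data known. Text names TOB2, the 4 most abundant members of each subunit, the 5 highest and 5 lowest values of each slope and of their difference, members called against most others or for an arm difference (up to 10 by p), all paralogs, the stalk, the 5S particle, RPS6, and up to 4 genes of each other list by p; a few of these genes are not reported here. Alternatives covered the pseudocount, the low-value filter, 4 scalings, the most abundant transcript, a replicate block, the variance trend, the chase end and leaving out single libraries.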

Additional observations from a re-analysis of the deposited data

Results flagged for a closer look

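The slope difference of RPL7L1, -0.1152 log2 TPM per hour (induced minus uninduced), stands out because both uninduced replicate series had positive slopes (0.019 and 0.004) and both induced series had negative ones (-0.12 and -0.087). The difference itself was tested and was not called with the values as deposited (limma adjusted p = 0.0603). The uninduced slope was negative under each of the 4 other scalings, so the opposite directions rest on the values as deposited.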

How the results depend on the processing

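Depth is unknown, so no limit from counting can be given, and the main limits are the 2 libraries in each group and the fixed TPM total. Counts below are of members called higher or lower, with the values as deposited in brackets. Without a low-value filter, lower calls were 0 (3) at 0.5 h and 6 (11) for the mean over times, and early higher calls were 10 (19) uninduced and 9 (18) induced. After quantile normalization the slope difference had 1 lower call (0), 0.5 h 1 lower, 4 h 1 higher (0) and 2 lower (1), 6 h 2 higher (1) and 2 lower (1), the mean 2 higher (0) and 7 lower, and the late uninduced change 3 lower (1). After median-of-ratios scaling the uninduced slope had 36 higher (75), 0.5 h 0 lower, 4 h 0 lower, 6 h 2 higher, the mean 17 lower, early uninduced 2 higher, early induced 0 higher, and late uninduced 20 higher (65) and 2 lower. On protein-coding transcripts the slope difference had 1 higher and 1 lower (0 each), 0.5 h 1 lower, 6 h 2 higher and 2 lower, the mean 3 higher, early induced 11 higher, and late uninduced 29 higher and 3 lower. Without RMRP, MIR6723 and RPPH1 the slope difference had 1 higher and 1 lower, 0.5 h 1 lower, 6 h 2 lower, the mean 2 higher, early uninduced 12 and induced 10 higher, and late uninduced 35 higher and 3 lower. With the most abundant transcript of each gene, 6 h had 2 lower, early uninduced 12 higher and late uninduced 2 lower. Without a variance trend, 0.5 h had 0 lower, early uninduced 10 higher and early induced 8 higher. With the chase cut at 4 h the uninduced slope had 1 lower (2), and the slope difference of RPL39L was 0.0038 (-0.036). The cause of these differences was not tested.

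With the replicate number as a block, lower calls were 6 at 0.5 h, higher and lower calls 5 and 2 at 6 h, higher calls for the mean 2, early higher calls 30 uninduced and 34 induced, and late uninduced lower calls 2. The slopes of RPS16 were then called (limma adjusted p = 0.0011 and 8.52e-06), and at 6 h RPLP1 was called higher (adjusted p = 0.0219) and RPL28 lower (0.029).

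Of protein-coding TPM, the members' mean share was 11.87% at 0 h and 16.19% at 6 h uninduced, and 11.54% and 17.5% induced (8.605%, 14.15%, 8.065% and 15.42% of all TPM). The ratio of large to small subunit by the most abundant transcripts was 1.69 and 1.642 uninduced and 1.711 and 1.612 induced at 0 and 6 h (1.764, 1.704, 1.797 and 1.688 over gene sums). Without paralogs it was 1.744 and 1.778 at 0 h. A pyrimidine match was found in 65.2% of members with the C at the annotated start (84.8% within 10 bases).

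Leaving out each library in turn (for slopes also each replicate series), higher calls ranged from 66 to 75 for the uninduced slope, 75 to 77 for the induced slope, 1 to 22 for the early uninduced and 0 to 21 for the early induced change, 40 to 66 for the late uninduced and 67 to 74 for the late induced change, 0 to 2 at 6 h and 0 to 1 for the mean. Lower calls ranged from 1 to 2 for the uninduced slope, 0 to 1 for the slope difference, 0 to 1 at 0.5 h and at 4 h, 1 to 2 at 6 h, 7 to 15 for the mean and 2 to 3 for the late induced change. RPL7L1 was the slope difference called, without replicate 2 of the induced arm at 0 h (-0.13) or at 2 h (-0.11). The early uninduced calls were 2 and 5 without replicate 1 or 2 at 0 h and 1 and 3 without replicate 1 or 2 at 1 h, and the early induced calls 1 and 11 without replicate 1 or 2 at 1 h.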
